A study of Mus musculus with 9 samples.

Results

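The genes described here are 35 genes of homologous recombination and the Fanconi anaemia pathway, taken by symbol from the deposited gene counts. They are 35 of 45361 identifiers in the count table. The RNA came from CH12F3, an established line of mouse B-lymphoma cells in which stimulation induces class switching of the immunoglobulin heavy chain to IgA. All 9 libraries, the DMSO controls included, came from Ligase4 KO cells given TGF-β, IL-4 and anti-CD40 as a stimulus for 24 h. Ligase 4 seals DNA breaks in classical end joining, so no group of this series had that route of repair intact. The first group of 3 libraries was treated with tazemetostat, an inhibitor of the histone H3K27 methyltransferase EZH2. The second had valemetostat, an inhibitor of EZH1 and EZH2, and the last had DMSO, the solvent, again with 3 libraries each. The series asked how transcription changes after either inhibitor, and the sources used here give neither inhibitor doses nor exposure times. All values come from 1 cell line, and both comparisons with DMSO share the same 3 DMSO libraries.

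Homologous recombination repairs a broken chromosome by copying an intact sister DNA. BRCA1 with BARD1 prepares the break, PALB2 and BRCA2 help to build a protein filament on single-stranded DNA, and the XRCC2-XRCC3 group, SWI5-SFR1 and RAD54 proteins assist the filament and its invasion of the intact copy. The Fanconi anaemia core complex recognises crosslinked DNA at stalled forks and attaches ubiquitin to FANCD2 and FANCI, after which nucleases and recombination factors finish the repair. Joined DNA molecules left by recombination are taken apart by the BLM-TOP3A-RMI complex or cut by MUS81-EME1, GEN1 and nucleases held by SLX4. In activated B cells these factors act on breaks from replication and from the deaminase AID.

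Library totals ran from 34080504 to 46675110 counts, and 12580 genes passed the filter on low counts. All 35 genes of the set passed it, and the lowest count of any of them in any library was 45, for Fancf. Their summed share of a library's counts was 0.128, 0.129 and 0.124% with tazemetostat, 0.127, 0.125 and 0.125% with valemetostat, and 0.139, 0.143 and 0.139% with DMSO. The deleted gene, Lig4, had 21 to 59 counts with tazemetostat, 31 to 46 with valemetostat and 29 to 39 with DMSO, and with no Lig4-intact library in the series these counts do not check the label. All 12 B cell markers were present and none was at 0, with summed levels of 9993 to 10200 TPM with tazemetostat, 9930 to 10320 TPM with valemetostat and 8758 to 9311 TPM with DMSO. TPM is the authors' count per transcript length, scaled to 1 total per library. Cd74 was the highest of the 12 at 6545 TPM and Ebf1 the lowest at 16.8 TPM, so the sums rest mainly on Cd74. Markers of T and NK cells summed to 2.39 to 3.97, 2.82 to 9.09 and 2.09 to 6.75 TPM in the same order of groups, with Ncr1, Trbc1 and Trbc2 at 0 in every library. The 10 myeloid markers summed to 26.1 to 28.1, 26.4 to 29.0 and 20.5 to 26.1 TPM, with S100a8 and S100a9 at 0, and the 9 fibroblast, endothelial and epithelial markers to 1.10 to 1.52, 1.14 to 1.25 and 0.65 to 1.38 TPM, with Col1a2 at 0. The lowest myeloid sum with tazemetostat, 26.12 TPM, was below the highest with DMSO, 26.14 TPM. The part of the B cell and myeloid marker sums in the results below was not tested.

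Genes of the set were lower with both EZH2 inhibitors more often than higher. With tazemetostat 15 of the 35 genes, or 42.9%, fell, where 18.2% of all tested genes did (edgeR quasi-likelihood test, Benjamini-Hochberg adjusted p under 0.05). Only 3 of the 35, or 8.57%, rose, where 19.9% of all tested genes did. With valemetostat 14 of the 35, or 40.0%, fell, against 18.7% of all tested genes, and 3 rose, against 20.5%. The median log2 fold change of the 35 genes was -0.12 with tazemetostat and -0.16 with valemetostat, beside medians of 0.001 and 0.007 over all tested genes. The sizes were modest, from a fall of 40.3% for Brca2 with valemetostat to a rise of 25.0% for Mus81 with valemetostat. Set side by side, 13 genes fell with both inhibitors, where 14.4% of all tested genes did: Brca1, Brca2, Xrcc3, Rad54l, Brip1, Fancd2, Fancm, Slx4, Gen1, Rmi2, Top3a, Helq and Wrn. Sfr1 and Fancl rose with both, where 16.9% of all tested genes did, and 15 genes passed the test with neither. In bulk RNA, fewer cells with a transcript and less transcript per cell cannot be told apart.

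**Figure D1:**
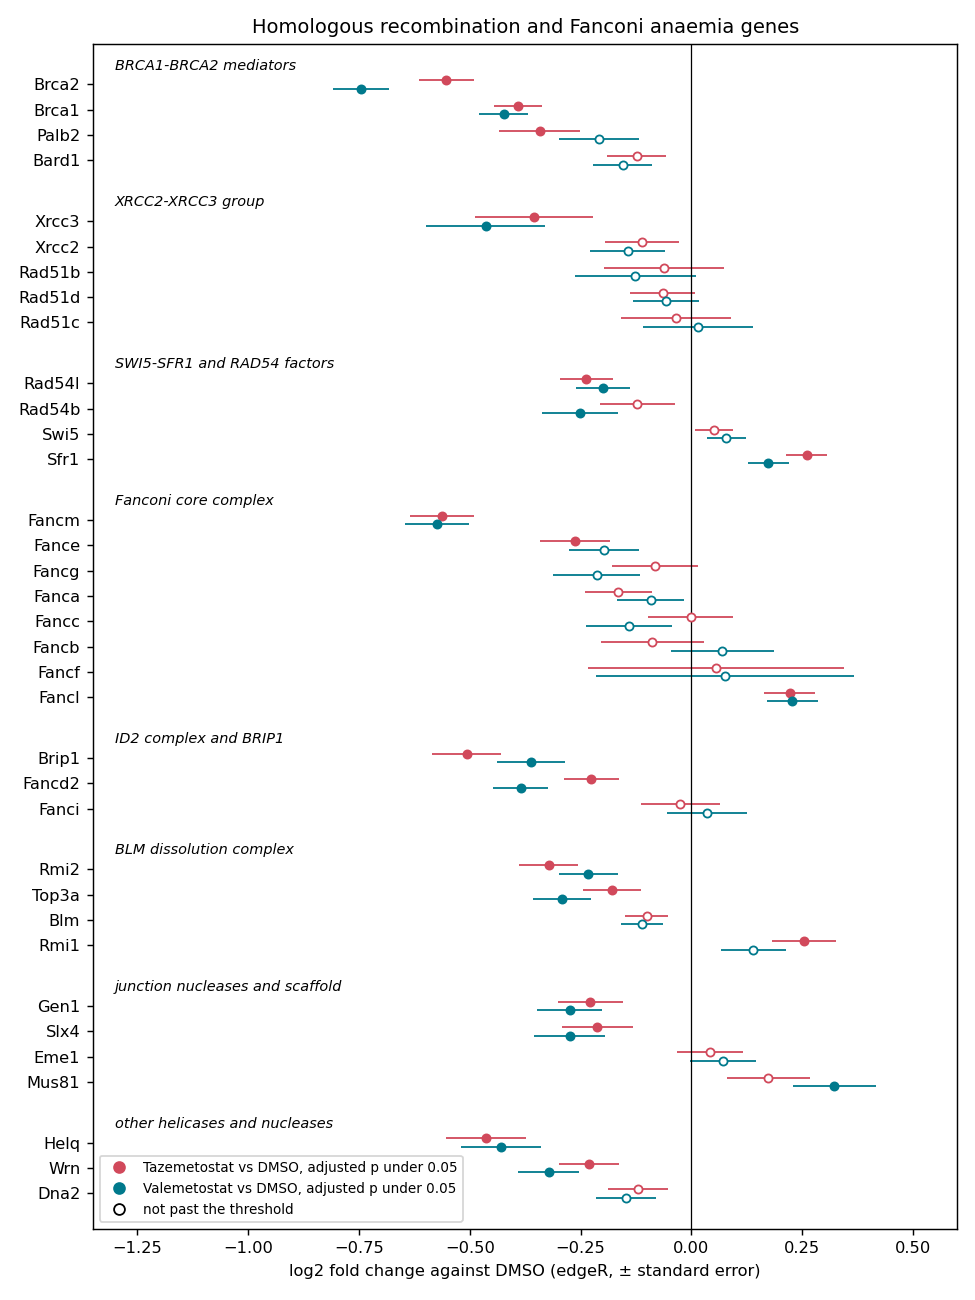
Log2 fold changes against DMSO on the horizontal axis with their standard errors, for the 35 genes grouped by role down the page, with tazemetostat above valemetostat for each gene, filled where the edgeR test was passed. Brca2 and Fancm lie farthest to the left, and Sfr1, Fancl, Mus81 and Rmi1 hold the filled points to the right of 0.

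The promoter sequences of 5 genes at both ends of this range are shown, because their genes had the lowest mean of the 2 log2 fold changes (Brca2, Fancm and Helq) or rose with both (Sfr1 and Fancl). Each is the stretch of 250 bases before the gene's start in RefSeq on GRCm38.p6, printed 5′ to 3′ on the gene's own strand. RefSeq placed Brca2 at chr5:150522371-150522620 on the + strand, Fancm at chr12:65075353-65075602 on the + strand and Helq at chr5:100798601-100798850 on the - strand. Sfr1 is at chr19:47731506-47731755 and Fancl at chr11:26386834-26387083, both on the + strand. Capitals mark matches, on either strand, to the letters TTTCCCGC or TTTGGCGC, forms bound by E2F factors, and to CCAAT, the box bound by NF-Y.
Brca2: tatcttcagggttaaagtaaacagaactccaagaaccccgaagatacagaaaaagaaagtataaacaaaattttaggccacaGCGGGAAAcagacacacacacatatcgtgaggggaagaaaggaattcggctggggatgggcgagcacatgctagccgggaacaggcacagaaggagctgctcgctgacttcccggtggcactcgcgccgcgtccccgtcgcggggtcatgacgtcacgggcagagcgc
Fancm: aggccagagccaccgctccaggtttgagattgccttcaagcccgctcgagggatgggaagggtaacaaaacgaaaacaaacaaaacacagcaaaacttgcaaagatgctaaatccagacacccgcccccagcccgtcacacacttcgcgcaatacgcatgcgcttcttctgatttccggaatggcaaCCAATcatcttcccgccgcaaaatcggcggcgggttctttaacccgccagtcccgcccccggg
Helq: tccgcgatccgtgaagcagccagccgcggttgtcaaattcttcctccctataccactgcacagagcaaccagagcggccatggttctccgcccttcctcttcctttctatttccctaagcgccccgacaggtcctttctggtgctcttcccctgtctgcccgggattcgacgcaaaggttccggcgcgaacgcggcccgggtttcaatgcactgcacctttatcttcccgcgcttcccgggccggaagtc
Sfr1: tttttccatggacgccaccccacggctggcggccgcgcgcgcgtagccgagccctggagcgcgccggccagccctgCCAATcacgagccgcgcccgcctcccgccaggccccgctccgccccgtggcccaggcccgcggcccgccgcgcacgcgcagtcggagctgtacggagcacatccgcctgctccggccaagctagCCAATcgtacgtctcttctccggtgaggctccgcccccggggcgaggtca
Fancl: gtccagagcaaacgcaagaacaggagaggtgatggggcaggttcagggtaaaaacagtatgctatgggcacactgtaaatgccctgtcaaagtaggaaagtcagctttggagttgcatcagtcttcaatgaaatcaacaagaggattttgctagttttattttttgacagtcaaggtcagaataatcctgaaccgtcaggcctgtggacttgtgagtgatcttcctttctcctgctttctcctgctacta
Among 28 of the 35 genes with an entry in the RefSeq promoter table, the E2F letters stood in 3, Brca2, Bard1 and Fancg, or 10.7%, against 1.3% of all 32851 promoters. Of these 3 genes only Brca2 passed the edgeR test with either inhibitor. Fancd2, Rmi2, Top3a and Wrn, which fell with both, were among the genes without an entry. CCAAT stood in 16 of the 28, or 57.1%, against 33.8%, with 1 copy in Fancm, 2 in Sfr1 and 3 in Brip1. A further set of letters, TTTGAA, found in promoters of mitotic genes, stood in 1 of the 28, Bard1, or 3.57%, against 16.0%. Some genes have several promoters. Counted per gene over 27025 genes, the shares were 1.51% for the E2F letters, 37.5% for CCAAT and 18.3% for TTTGAA. Both backgrounds include genes that did not pass the filter on low counts here. The median number of CpG in these 250 bases was 18 over the 28 genes, against 6 over all promoters. Helq and Fancl held no match to either of the first pair of motifs. The Fancl stretch held only 2 CpG at 44.4% GC, and that of Helq 22 CpG at 60.4% GC. Genes that fell with both inhibitors therefore had promoters of each kind, with the E2F letters in Brca2, CCAAT in Fancm and Brip1, and neither in Helq. A match describes these letters only.

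Among the BRCA1-BRCA2 mediators the fall was led by Brca2, which acts in building the filament. Brca2 was at 40.4, 41.7 and 37.0 CPM (TMM-scaled counts on a common library size) with tazemetostat, at 36.0, 34.3 and 34.0 CPM with valemetostat, and at 56.8, 60.3 and 57.7 CPM with DMSO. Every inhibitor library lay below every DMSO library. The log2 fold change was -0.55 ± 0.06 (SE) with tazemetostat and -0.74 ± 0.06 with valemetostat (edgeR adjusted p = 1.12e-07 and 7.56e-10), that is falls of 31.8 and 40.3%. Brca1, the ubiquitin ligase that starts the pathway, was at 69.4, 69.4 and 63.3 CPM with tazemetostat, at 66.3, 64.0 and 67.4 CPM with valemetostat, and at 85.4, 92.3 and 87.5 CPM with DMSO. Its libraries did not overlap with those of DMSO in either comparison, and it fell by 0.39 ± 0.05 and by 0.42 ± 0.05 on the log2 scale (edgeR adjusted p = 2.98e-06 and 8.78e-07). Palb2, the bridge between BRCA1 and BRCA2, was at 14.9, 13.9 and 16.0 CPM with tazemetostat, at 17.1, 15.9 and 16.1 CPM with valemetostat, and at 20.5, 17.4 and 18.7 CPM with DMSO. All inhibitor libraries of Palb2 were below the DMSO libraries, by a narrow margin with valemetostat. Palb2 fell with tazemetostat (-0.34 ± 0.09, edgeR adjusted p = 0.00412), and its valemetostat value of -0.21 ± 0.09 missed the threshold (edgeR adjusted p = 0.0728). Bard1, the partner of BRCA1, was at -0.12 and -0.16 on the log2 scale and passed with neither (edgeR adjusted p = 0.149 and 0.0672). On the deposited log2(TPM + 1) values the tazemetostat calls of Brca2 and Palb2 were lost (limma adjusted p = 0.142 and 0.152).

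Of the 5 genes of the XRCC2-XRCC3 group, whose proteins form small complexes that help the filament, Xrcc3 alone fell. Xrcc3, a partner of RAD51C, was at 6.72, 5.92 and 6.52 CPM with tazemetostat, at 5.36, 6.38 and 6.04 CPM with valemetostat, and at 8.12, 8.88 and 7.51 CPM with DMSO. The inhibitor and DMSO libraries did not overlap, although Xrcc3 is one of the least abundant genes of the set in CPM. Its log2 fold change was -0.36 ± 0.13 with tazemetostat and -0.46 ± 0.13 with valemetostat (edgeR adjusted p = 0.0362 and 0.00719). The tazemetostat call was lost when any 1 of 5 libraries was left out, with edgeR adjusted p of 0.0702 without DMSO 1, 0.146 without DMSO 2, 0.05 without tazemetostat 1, 0.127 without tazemetostat 2 and 0.0688 without tazemetostat 3. It was also lost with DESeq2 (0.0564), and both calls were lost on log2(TPM + 1) values (limma adjusted p = 0.429 and 0.396). Xrcc3 shares 12 exonic bases with Klc1 on the opposite strand, which fell by 0.24 and by 0.15. Rad51b, Rad51c, Rad51d and Xrcc2 had log2 values from -0.14 to 0.01 over both comparisons, and their libraries overlapped with DMSO.

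The accessory factors of the filament split by direction. Sfr1, which with SWI5 stabilises the filament, rose with both inhibitors. Sfr1 was at 158, 164 and 160 CPM with tazemetostat, at 152, 151 and 150.1 CPM with valemetostat, and at 126, 135 and 141 CPM with DMSO. All 6 inhibitor libraries lay above the DMSO libraries, and the log2 fold change was 0.26 ± 0.05 with tazemetostat and 0.17 ± 0.05 with valemetostat (edgeR adjusted p = 7.96e-05 and 0.00418). Its partner Swi5 was at 0.05 and 0.08, which did not pass, and at -0.08 and -0.06 on the log2(TPM + 1) scale. Rad54l, the motor protein that helps strand invasion of the intact copy, was at 50.3, 52.3 and 48.4 CPM with tazemetostat, at 49.1, 55.5 and 50.5 CPM with valemetostat, and at 59.7, 59.7 and 58.7 CPM with DMSO. Its DMSO libraries lay close together and above all inhibitor libraries. Rad54l fell by 0.24 ± 0.06 and by 0.20 ± 0.06 (edgeR adjusted p = 0.00267 and 0.00971), the second call being lost without valemetostat 1 (0.0665). Rad54l shares 1184 exonic bases with Lrrc41 on the opposite strand in GENCODE M21, and these counts cannot separate reads from the overlap. Lrrc41 was at 0.12 with tazemetostat, which did not pass, and rose by 0.16 with valemetostat (edgeR adjusted p = 0.0545 and 0.00711). Rad54b, its relative, was at 19.8, 17.6 and 19.7 CPM with tazemetostat, at 18.2, 18.2 and 15.8 CPM with valemetostat, and at 20.3, 21.1 and 20.7 CPM with DMSO. Rad54b fell with valemetostat, at -0.25 ± 0.09, and was at -0.12 with tazemetostat, which did not pass (edgeR adjusted p = 0.0223 and 0.279). The direct comparison of the inhibitors gave -0.13, with a 95% interval from -0.30 to 0.04. The valemetostat call was lost without DMSO 2 (0.0693) or valemetostat 3 (0.131). Rad54b shares 2068 exonic bases with Fsbp on the same strand, and Fsbp was at -0.01 and -0.42, which did not pass.

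In the Fanconi core complex Fancm fell with both inhibitors and Fance with tazemetostat, while Fancl rose with both. Fancm is the translocase that anchors the complex on stalled forks, and it was at 23.8, 22.4 and 23.6 CPM with tazemetostat, at 24.8, 21.8 and 22.7 CPM with valemetostat, and at 34.1, 34.3 and 34.7 CPM with DMSO. The 3 DMSO libraries lay within 1 CPM of each other and far above the other 6. Fancm fell by 0.56 ± 0.07 and by 0.57 ± 0.07 on the log2 scale (edgeR adjusted p = 7.6e-07 and 5.84e-07), or by 32.3 and 32.8%. Fancl, the ubiquitin ligase subunit of the complex, was at 57.1, 62.7 and 58.7 CPM with tazemetostat, at 59.7, 60.8 and 58.7 CPM with valemetostat, and at 50.9, 49.8 and 52.5 CPM with DMSO. All inhibitor libraries were above the DMSO libraries, and Fancl rose by 0.22 ± 0.06 and 0.23 ± 0.06 (edgeR adjusted p = 0.00313 and 0.00243). Fancl shares 462 exonic bases with Vrk2 on the opposite strand, and Vrk2 itself was at 0.02 and 0.03, which did not pass. Fance, the subunit that binds FANCD2, was at 22.1, 25.4 and 23.8 CPM with tazemetostat, at 23.2, 24.0 and 27.5 CPM with valemetostat, and at 29.0, 27.7 and 28.8 CPM with DMSO. The highest of its valemetostat libraries came within 1 CPM of the lowest DMSO library, and the other valemetostat libraries lay well below. Fance fell with tazemetostat (-0.26 ± 0.08, edgeR adjusted p = 0.00982, and 0.0661 without tazemetostat 1) and was at -0.20 ± 0.08 with valemetostat (0.0506). The other 5 core genes, Fanca, Fancb, Fancc, Fancf and Fancg, ranged from -0.21 to 0.08 and passed with neither inhibitor. Fanca shares 920 exonic bases with Zfp276 on the opposite strand, which fell by 0.40 and by 0.39.

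Downstream of the core complex, Fancd2 and Brip1 fell and Fanci did not pass the test. Fancd2 is the protein that receives ubiquitin, together with FANCI. Fancd2 was at 69.3, 69.5 and 68.5 CPM with tazemetostat, at 66.2, 63.6 and 55.7 CPM with valemetostat, and at 81.5, 85.8 and 75.1 CPM with DMSO. Its inhibitor libraries were all below the DMSO libraries, and the valemetostat libraries varied most. The log2 fold change of Fancd2 was -0.23 ± 0.06 with tazemetostat and -0.39 ± 0.06 with valemetostat (edgeR adjusted p = 0.00511 and 2.12e-05). Brip1, a helicase that binds BRCA1, was at 20.9, 23.2 and 23.0 CPM with tazemetostat, at 25.1, 25.2 and 24.0 CPM with valemetostat, and at 29.5, 35.04 and 31.0 CPM with DMSO. Every inhibitor library of Brip1 lay below every DMSO library. Brip1 fell by 0.51 ± 0.08 and by 0.36 ± 0.08 (edgeR adjusted p = 1.04e-05 and 0.000541). Fanci was at -0.02 with tazemetostat and 0.04 with valemetostat, with overlapping libraries, so the 2 genes of the FANCD2-FANCI pair did not share a call. Fanci shares 921 exonic bases with Polg on the opposite strand, and Polg fell by 0.47 and by 0.35.

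**Figure D2:**
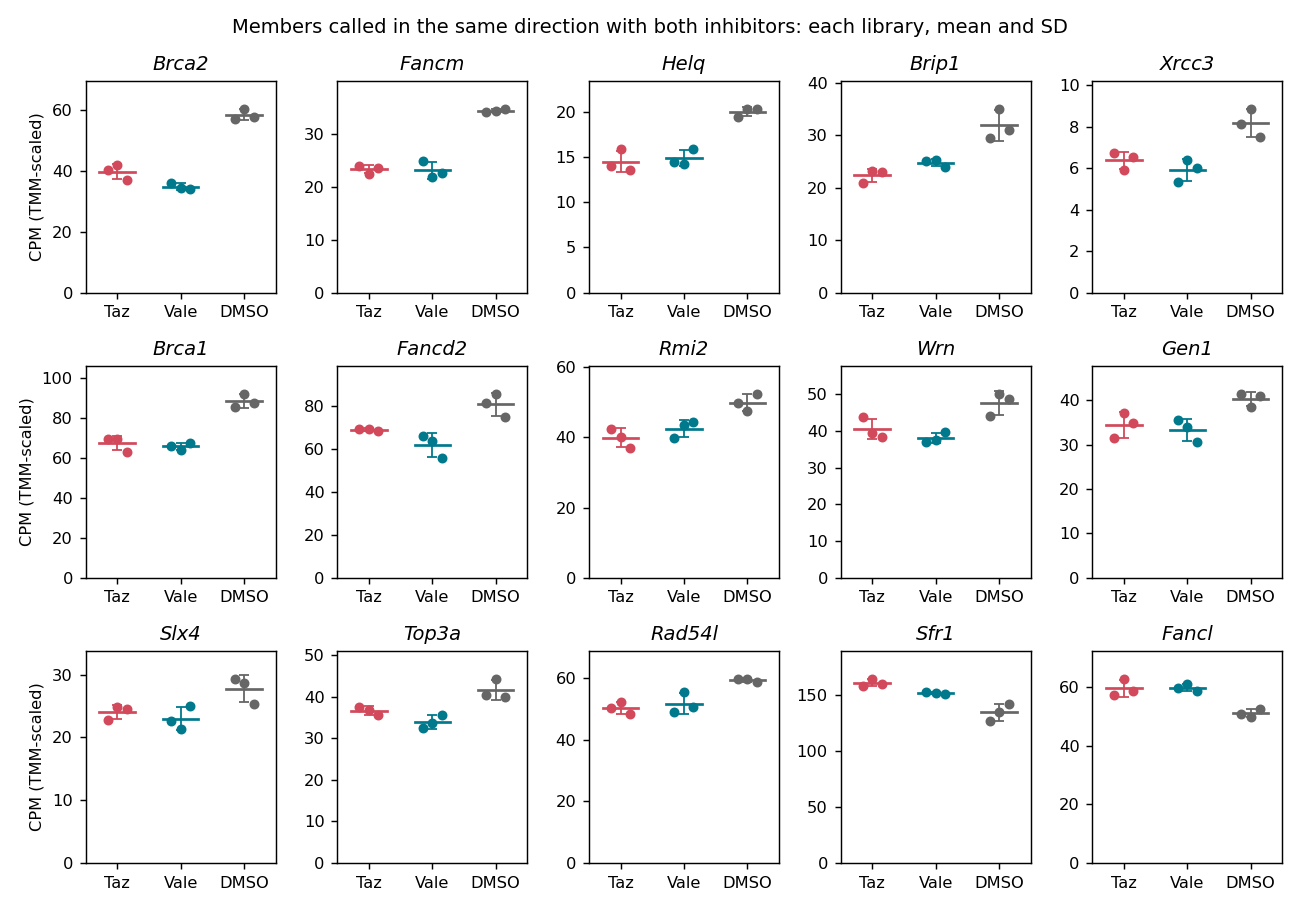
CPM after TMM scaling on the vertical axis, from 0, for the 15 genes called in the same direction with both inhibitors, with each library as a point and the mean and SD of 3 as lines, tazemetostat left, valemetostat in the middle and DMSO right. In each panel the 3 DMSO points lie apart from the 6 inhibitor points, above them for 13 genes and below them for Sfr1 and Fancl.

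The complex that dissolves recombination intermediates moved in both directions. Rmi2, a small subunit that stabilises it, was at 42.5, 40.1 and 37.1 CPM with tazemetostat, at 39.8, 43.4 and 44.3 CPM with valemetostat, and at 49.9, 47.5 and 52.4 CPM with DMSO. The groups did not overlap with DMSO, and Rmi2 fell by 0.32 ± 0.07 and by 0.23 ± 0.07 (edgeR adjusted p = 0.000427 and 0.00711, the second at 0.058 without valemetostat 1). Top3a, the topoisomerase of the complex, was at 37.6, 36.9 and 35.5 CPM with tazemetostat, at 32.5, 33.7 and 35.6 CPM with valemetostat, and at 40.4, 44.3 and 40.0 CPM with DMSO. It fell by 0.18 ± 0.07 and by 0.29 ± 0.07 (edgeR adjusted p = 0.0341 and 0.000986), and the tazemetostat call was lost without DMSO 2 (0.173), tazemetostat 2 (0.0694) or tazemetostat 3 (0.131). Rmi1, the scaffold that holds TOP3A and BLM together, was at 28.3, 25.8 and 27.6 CPM with tazemetostat, at 25.7, 25.5 and 24.2 CPM with valemetostat, and at 22.1, 23.2 and 23.3 CPM with DMSO. Its 6 inhibitor libraries were all above the DMSO libraries. Rmi1 rose with tazemetostat (0.25 ± 0.07, edgeR adjusted p = 0.00718), while 0.14 ± 0.07 with valemetostat did not pass (0.138). The annotation places 330 exonic bases of Rmi1 opposite Hnrnpk, which averaged 868 TPM and was itself at 0.08 and 0.03, which did not pass. Blm, the helicase, was at -0.10 and -0.11 and passed with neither.

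Of the genes that cut joined DNA molecules, Gen1 and Slx4 fell with both inhibitors and Mus81 had its own pattern. Gen1, a nuclease for Holliday junctions, was at 31.4, 37.1 and 34.8 CPM with tazemetostat, at 35.4, 34.0 and 30.6 CPM with valemetostat, and at 41.4, 38.5 and 40.9 CPM with DMSO. The highest tazemetostat library of Gen1 came close to the lowest DMSO library. Its log2 fold change was -0.23 ± 0.07 with tazemetostat and -0.27 ± 0.07 with valemetostat (edgeR adjusted p = 0.0152 and 0.00403), and the tazemetostat call was lost without DMSO 1 (0.0544) or tazemetostat 1 (0.117), with the length offset alone (0.0517), and on log2(TPM + 1) values, where it was at -0.08 (limma adjusted p = 0.664). Slx4, the scaffold for several nucleases, was at 22.8, 24.8 and 24.5 CPM with tazemetostat, at 22.6, 21.4 and 25.0 CPM with valemetostat, and at 29.3, 28.7 and 25.4 CPM with DMSO. DMSO 3 was within 1 CPM of the highest inhibitor libraries. Slx4 was at -0.21 ± 0.08 and -0.27 ± 0.08 (edgeR adjusted p = 0.0372 and 0.00784). Its tazemetostat call was lost without DMSO 1 (0.144), DMSO 2 (0.11), tazemetostat 1 (0.144) or tazemetostat 3 (0.069), and its valemetostat call without valemetostat 2 (0.0622). Mus81, the catalytic subunit of the MUS81-EME1 nuclease, was at 15.3, 16.2 and 16.2 CPM with tazemetostat, at 16.2, 19.0 and 17.8 CPM with valemetostat, and at 15.1, 14.2 and 13.0 CPM with DMSO. Its libraries did not overlap with DMSO, and it rose with valemetostat (0.32 ± 0.09, edgeR adjusted p = 0.00748, and 0.05 without valemetostat 2), while 0.17 ± 0.09 with tazemetostat did not pass (0.151). Its partner Eme1 was at 0.04 and 0.07, which did not pass.

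The remaining helicases fell and the nuclease Dna2 did not pass. Helq, a helicase that acts at stalled forks and on annealed strands, was at 14.0, 15.9 and 13.6 CPM with tazemetostat, at 14.4, 14.3 and 15.9 CPM with valemetostat, and at 19.4, 20.3 and 20.3 CPM with DMSO. The DMSO libraries of Helq were all above the other 6. Helq fell by 0.46 ± 0.09 and by 0.43 ± 0.09 (edgeR adjusted p = 0.000207 and 0.00046). Wrn, a RecQ helicase with a nuclease domain, was at 43.7, 39.4 and 38.5 CPM with tazemetostat, at 36.9, 37.6 and 39.7 CPM with valemetostat, and at 44.1, 50.1 and 48.7 CPM with DMSO. DMSO 1 and tazemetostat 1 nearly met. Wrn fell by 0.23 ± 0.07 and by 0.32 ± 0.07 (edgeR adjusted p = 0.00866 and 0.000496), and the tazemetostat call was lost without DMSO 2 (0.0524) or tazemetostat 3 (0.0573). Dna2, which trims DNA ends and flaps, was at -0.12 and -0.15 and passed with neither.

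Counted over the 8 roles, every role held at least 1 gene that fell with each inhibitor. Of all tested genes 18.2% fell with tazemetostat and 18.7% with valemetostat, so 1 gene in a role of several is near that share. With tazemetostat the share ran from 1 of 5 genes of the XRCC2-XRCC3 group to 3 of 4 BRCA1-BRCA2 mediators. With valemetostat it ran from 1 of 8 genes of the Fanconi core complex to 2 of 3 genes in each of the ID2 complex with BRIP1 and the other helicases and nucleases. The role with the lowest median was the BRCA1-BRCA2 mediators with tazemetostat (-0.37) and the ID2 complex with BRIP1 with valemetostat (-0.36). Within a complex, partners did not always share a call. Sfr1 rose and Swi5 did not pass. Fancl rose and Fancm fell in the core complex, and with tazemetostat Rmi1 rose and Rmi2 fell. CPM of 20 genes in each comparison lay wholly below DMSO, against 23.3% of all tested genes with tazemetostat and 23.7% with valemetostat. Wholly above DMSO lay 5 genes with tazemetostat and 6 with valemetostat, against 24.1 and 24.8% of all tested genes.

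The inhibitors were also compared directly. Valemetostat against tazemetostat called 0 of the 35 genes in edgeR, against 0.254% of all tested genes called lower and 0.0636% higher. At an unadjusted p under 0.05 there were 2 of the 35 genes, where 999 of all 12580 tested genes were. DESeq2 also called 0, and limma on log2(TPM + 1) values called 0, where it called 0.00795% of all tested genes lower and 0.0% higher. The 2 of the set were Brca2, at -0.19 (95% interval -0.32 to -0.07, edgeR adjusted p = 0.343), and Fancd2, at -0.16 (-0.28 to -0.04, edgeR adjusted p = 0.470). The values ran from -0.19 for Brca2 to 0.16 for Fancb, and the intervals reached 0.0855 to 0.568 to either side on the log2 scale. For each gene, a difference smaller than its own width could not be told from 0 here. Brca2 and Fancd2 exceeded their own widths and were still not called after adjustment.

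Transcript length moved with these results. The longest annotated transcript of the 35 genes had a median of 3750 nt in GENCODE M21, with a range from 1657 nt for Sfr1 to 10724 nt for Brca2, against a median of 3240.5 nt over the 12554 tested genes with a length. The 13 genes that fell with both inhibitors had a median of 5512 nt, the 2 that rose with both 2190.5 nt, and the 15 called with neither 3547 nt. Across the 35 genes the Spearman rank correlation between length and log2 fold change was -0.55 with tazemetostat and -0.53 with valemetostat, and across all tested genes -0.20 and -0.24. These describe genes measured in the same libraries, which are not independent replicates. For genomic span the rank correlation was -0.34 and -0.36 over the set, and for GC content -0.01 and -0.01. The longest transcript is not always the one in use, as for Swi5, whose longest is 4511 nt and whose TPM used a mean length of 560 nt with tazemetostat, 559 nt with valemetostat and 540 nt with DMSO. With the length implied by counts over TPM, described further on, it was -0.60 and -0.57. The libraries differed in the same respect within groups. The rank correlation between length and each library's deviation from the 9-library mean, over 12188 genes, was -0.01, -0.01 and -0.27 with tazemetostat, -0.16, -0.30 and -0.15 with valemetostat, and 0.17, 0.31 and 0.11 with DMSO. The part of this difference between libraries in the falls was not tested beyond the offset below.

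**Figure D3:**
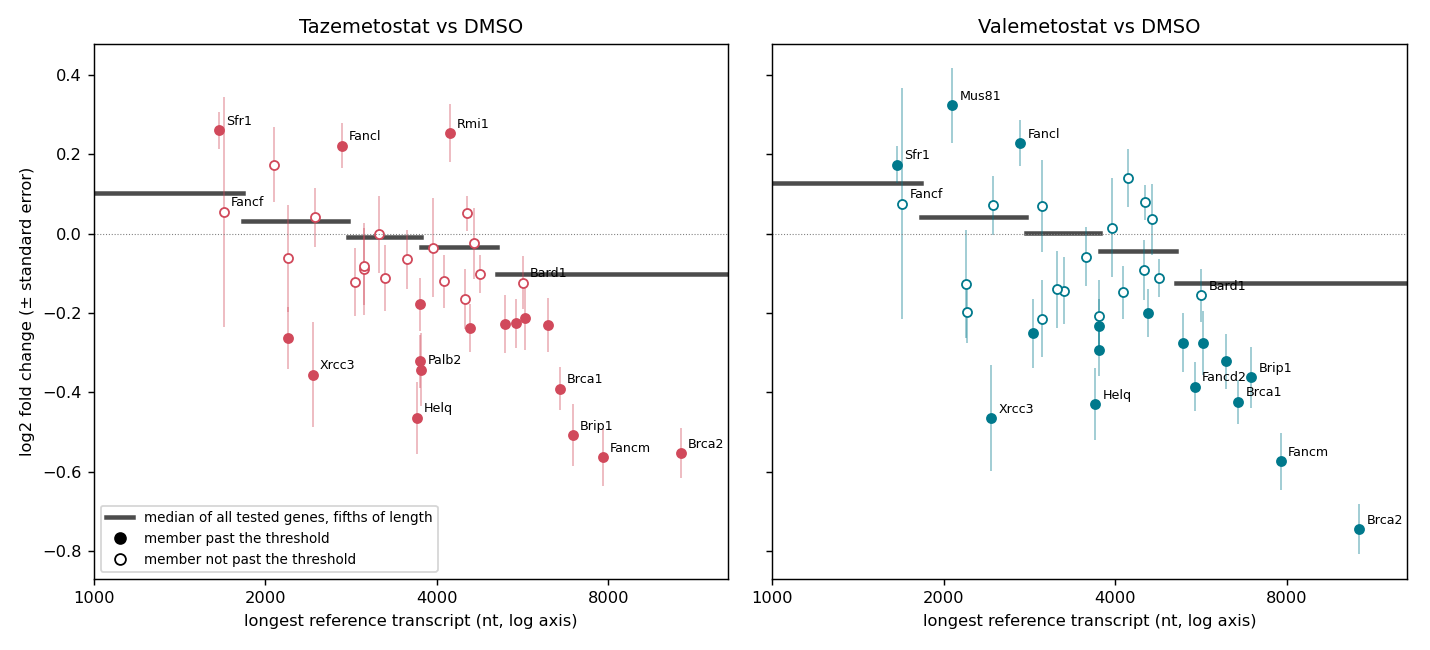
Log2 fold change against DMSO with its standard error (vertical axis) by the longest annotated transcript in nt (horizontal log axis) for the 35 genes, with tazemetostat left, valemetostat right and points filled where the edgeR test was passed. Bars give the median of all tested genes in 5 bins of length, which declines to -0.10 and -0.12 in the longest bin, and Brca2 and Fancm lie far below them.

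Split by length into 5 bins of like size, the set did not follow all genes in the same way in each bin. In the longest bin, from 5106 nt, 8 of 9 genes of the set fell with each inhibitor, all but Bard1, where 36.2% of all genes in the bin fell with tazemetostat and 40.7% with valemetostat. The medians in this bin were -0.23 and -0.36 for the set, against -0.10 and -0.12 for all genes. Bins followed the longest annotated transcript, 5706 nt for Slx4 and 5268 nt for Gen1. The TPM of these genes used shorter lengths, with medians of 2792 nt for Slx4 and 3697 nt for Gen1. In the bin from 2791 to 3755 nt, 4 of 10 fell with each inhibitor, against 16.6 and 16.4%, among them Helq, Rmi2 and Top3a. From 3756 to 5105 nt only Rad54l of 8 fell, against 23.7 and 24.1%. Of 6 genes from 1827 to 2790 nt, Xrcc3 fell with both and Fance with tazemetostat, against 10.3 and 8.97%. Neither of the 2 shortest, Sfr1 and Fancf, fell, where 4.26 and 3.34% of all genes in that bin did.

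A per-library offset for transcript length and GC content left most calls in place. With it 14 genes of the set fell and 3 rose with tazemetostat, against 19.2 and 19.3% of all tested genes, and 16 fell and 3 rose with valemetostat, against 19.5 and 19.2%. The median of the set was -0.13 and -0.18, and the rank correlation with the longest annotated transcript was -0.41 and -0.31. With the length implied by counts over TPM, the rank correlation after the offset was -0.49 and -0.42. Values of several of the longest genes lay nearer to 0 with the offset. Brca2 was at -0.39 with tazemetostat and -0.53 with valemetostat, Brca1 at -0.31 and -0.32, Fancm at -0.46 and -0.43, and Brip1 at -0.42 and -0.24. Helq, of middle length, was at -0.47 and -0.44, and Fancl at 0.18 and 0.19. In the longest bin the medians were -0.19 and -0.24 for the set, against -0.02 and -0.01 for all genes. Sfr1, the shortest by longest annotated transcript, was at 0.15 with tazemetostat (edgeR adjusted p = 0.00286) and at 0.05 with valemetostat, where its call was lost (0.35). Slx4 lost its tazemetostat call (0.138), and with valemetostat Swi5 at 0.09, Fance and Fancg, the last at -0.24, were called (0.0489, 0.0112 and 0.0444). The offset took the longest annotated transcript of each gene, 4511 nt for Swi5, whose TPM used a median of 554 nt. The Swi5 call with the offset thus rests on a length that its TPM did not use.

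**Figure D4:**
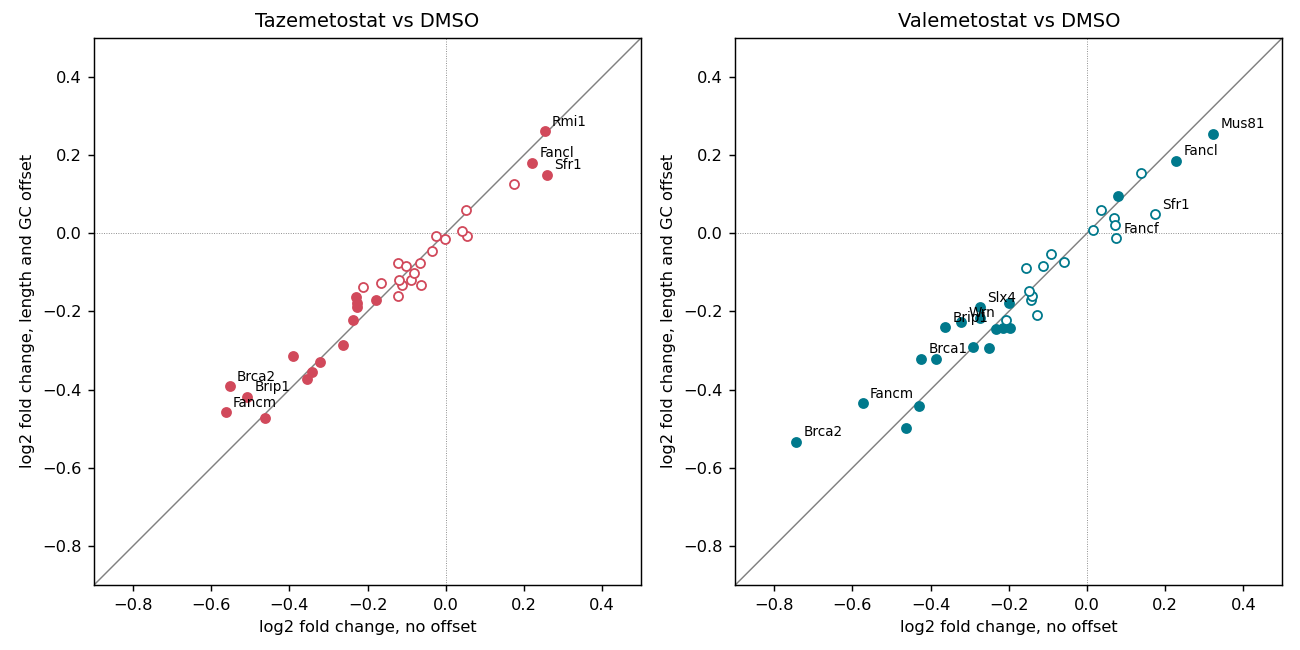
Log2 fold change with a per-library offset for transcript length and GC content (vertical axis) against the value without it (horizontal axis) for the 35 genes, with tazemetostat left, valemetostat right, points filled where the edgeR test was passed with the offset and a diagonal of equal values. Brca2, Fancm, Brip1 and Brca1 lie above the diagonal, while Helq and, with valemetostat, Xrcc3 lie slightly below it at the left and Sfr1 lies below it at the right.

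The deposited TPM values gave a further view of length, because counts divided by TPM return the transcript length that each library's TPM used. This implied length differed between libraries for genes with several transcripts. For Mus81 it was 1466, 2014 and 1703 nt with tazemetostat, 2067, 1881 and 1866 nt with valemetostat, and 1188, 1264 and 1192 nt with DMSO. All 6 inhibitor libraries exceeded the DMSO libraries, with means ± SD of 1728 ± 275, 1938 ± 112 and 1215 ± 43.0 nt (n = 3 each). Among 10048 genes tested with limma, 1 was called in each comparison with DMSO (0.00995%), and Mus81 was not (adjusted p = 0.447 with tazemetostat and 0.364 with valemetostat, unadjusted p = 0.00275 and 0.00049). Mus81 TPM were 15.2, 11.6 and 13.1 with tazemetostat, 11.2, 14.0 and 13.5 with valemetostat, and 19.1, 17.3 and 15.8 with DMSO. On the log2(TPM + 1) scale Mus81 was thus called lower, at -0.37 and -0.41 (limma adjusted p = 0.0418 and 0.0272), while on counts it was at 0.17 and 0.32. The direction of Mus81 therefore depends on the unit, by construction of TPM as count per length.

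Helq showed the other case, in which both units pointed the same way. Its implied length was 3597, 3493 and 3526 nt with tazemetostat, 3500, 3890 and 3438 nt with valemetostat, and 2897, 2753 and 3315 nt with DMSO, again without overlap (limma adjusted p = 0.666 and 0.585). Of 34 genes of the set with an implied length in every library, only Mus81 and Helq had an unadjusted limma p under 0.05, in each comparison with DMSO. The share of all genes at that unadjusted p was not counted, nor that of genes whose implied lengths did not overlap. These 2 genes are therefore not set apart from genes at large. Helq TPM were 5.64, 6.57 and 5.30 with tazemetostat, 5.90, 5.08 and 6.53 with valemetostat, and 10.1, 11.4 and 8.88 with DMSO. On that scale Helq fell by 0.70 with each inhibitor (limma adjusted p = 0.00291 and 0.00267), the lowest values of the set. For Fancm the implied length was 7837, 8228 and 3833 nt with tazemetostat, 7669, 8533 and 7422 nt with valemetostat, and 5409, 7795 and 8219 nt with DMSO. Tazemetostat 3 and DMSO 1 stood apart, while the CPM of Fancm hardly varied within a group. Its calls were lost on log2(TPM + 1) (limma adjusted p = 0.232 and 0.0506). For Brca2, tazemetostat 3 and valemetostat 2 stood apart at 5085 and 5140 nt, where the other 7 libraries had 7257 to 8893 nt.

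**Figure D5:**
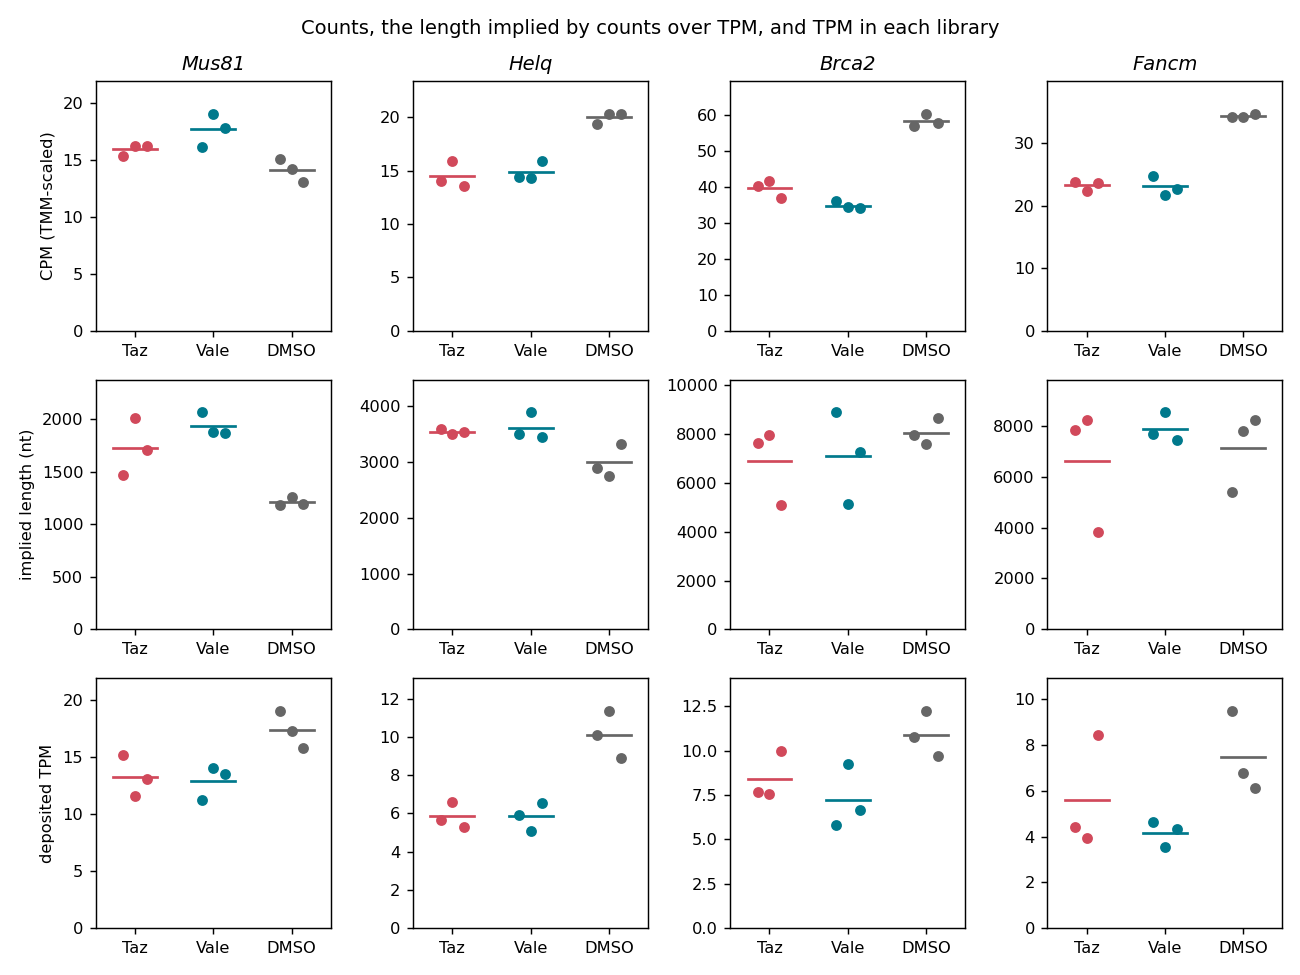
CPM after TMM scaling, the implied transcript length in nt and the deposited TPM (rows, all axes from 0) for Mus81, Helq, Brca2 and Fancm (columns), with each library as a point and the mean of 3 as a line, tazemetostat left, valemetostat in the middle and DMSO right. Mus81 lies above DMSO in CPM and below it in TPM, with a longer implied length in all 6 inhibitor libraries.

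Over the whole set, log2(TPM + 1) values called 8 genes lower and 1 higher with tazemetostat, where limma called 15.5 and 9.36% of all tested genes, and 14 lower and 1 higher with valemetostat, against 16.8 and 9.47%. On this scale 37.7% of all calls with tazemetostat and 36.0% with valemetostat were higher, against 52.3% of calls on counts in both comparisons. Besides those given above, tazemetostat calls lost on this scale were those of Fancd2, Fancl, Slx4, Rmi1, Top3a and Wrn (limma adjusted p = 0.0506, 0.188, 0.131, 0.198, 0.0582 and 0.0621), and with valemetostat that of Sfr1 (0.231). Besides Mus81, 2 genes not called in the main fit were called lower here. These were Blm with tazemetostat (-0.23, limma adjusted p = 0.0447) and Fancg with valemetostat (-0.52, limma adjusted p = 0.00727). Brca1, Brip1 and Helq were called in the same direction with both inhibitors in all 20 alternative settings tried, and the share of all genes so kept was not counted.

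Levels between genes were compared in TPM. Swi5 had the highest mean over all libraries, 338 TPM, followed by its partner Sfr1 at 132 TPM. Fancl at 42.1 TPM and Blm at 34.2 TPM came next. The lowest was Fancf at 1.5 TPM, a 225-fold range, and the median of the 35 genes was 12.1 TPM, against 15.1 TPM over all tested genes. The genes that fell most were of middling or low level, with Brca1 at 13.5, 12.8 and 18.5 TPM as means with tazemetostat, valemetostat and DMSO, and Brca2 at 8.42, 7.23 and 10.9 TPM.

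Genes that work with the set but lie outside it were looked at in 4 lists. Of 39 tested homologous recombination partners 14 fell and 1 rose with tazemetostat, and 19 fell and 2 rose with valemetostat, with medians of -0.10 and -0.14 on the log2 scale. Beside these counts, and those of the 3 other lists, stand the shares of all tested genes given above, 18.2% lower and 19.9% higher with tazemetostat and 18.7% lower and 20.5% higher with valemetostat. Polq, the polymerase of theta-mediated end joining, averaged 27.1 ± 3.60 CPM with tazemetostat, 27.7 ± 0.560 CPM with valemetostat and 46.4 ± 2.07 CPM with DMSO (SD, n = 3 each). Its fall, -0.77 ± 0.08 and -0.74 ± 0.08, was as deep as that of Brca2 with valemetostat. Atm, the kinase that signals breaks, fell by 0.41 in each comparison, and the helicase gene Recql4 by 0.49 and by 0.43. Of 21 tested Fanconi anaemia partners 10 fell and 1 rose with tazemetostat, and 7 fell and 0 rose with valemetostat. Rev3l, the catalytic subunit of the lesion-bypass polymerase zeta, fell by 0.52 and by 0.50. Rev1, another bypass polymerase, fell by 0.42 with tazemetostat, and Usp1, which removes ubiquitin from FANCD2, by 0.27 with valemetostat.

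Cell cycle genes were listed because many genes of the set are known to be transcribed most in S phase. Of 38 S phase and replication genes 12 fell and 4 rose with tazemetostat, and 11 fell and 6 rose with valemetostat, with medians of -0.07 and -0.08. Pole, the leading-strand polymerase, averaged 115 ± 5.36 CPM with tazemetostat, 106 ± 2.27 CPM with valemetostat and 153 ± 4.94 CPM with DMSO, and fell by 0.41 and by 0.53. E2f8, a repressor of E2F targets, averaged 40.6 ± 4.51, 42.7 ± 1.71 and 25.6 ± 2.21 CPM in the same order and rose by 0.67 and 0.74. Mcm10 fell by 0.26 with tazemetostat and Rfc1 by 0.30 with valemetostat. Of 24 G2 and mitosis genes 6 fell and 5 rose with tazemetostat, and 6 fell and 3 rose with valemetostat, with medians of -0.01 and 0.01, again beside 18.2 and 19.9% of all tested genes with tazemetostat and 18.7 and 20.5% with valemetostat. Mki67, a marker of proliferating cells with a long transcript, fell by 0.39 and by 0.61, Cenpe by 0.29 and by 0.34, and Foxm1 by 0.32 with valemetostat, while Ube2c rose by 0.33 with tazemetostat. The part of the cell cycle in the values of the 35 genes was not tested.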

How the data were processed

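RNA from 9 libraries, 3 each with tazemetostat, valemetostat and DMSO, was poly(A)-selected, randomly primed after fragmentation and sequenced in read pairs, per the labels' protocols. The authors deposited whole-number counts per gene and library, and log2 values that equal log2(TPM + 1). The submitters' processing notes name the build mm9. For the aligner, the counter, the strand setting and the annotation, nothing is given in the sources used here. Reads of overlapping or antisense genes could not be told apart. GENCODE M21 (GRCm38) served for transcript lengths, GC content and exon overlaps, and RefSeq (GRCm38.p6) for promoters. The length bins and the offsets used the longest annotated transcript of each gene.

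Counts were tested with edgeR 4.0.16 in R 4.3.3 (TMM scaling, filterByExpr at a minimum of 10 counts and 15 in total, robust quasi-likelihood F test), with all 9 libraries in 1 fit of 3 groups. Benjamini-Hochberg adjustment ran over all 12580 tested genes, at a threshold of 0.05. SE were obtained from the log2 fold change and F (its absolute value divided by the root of F). Intervals are 95% by a normal approximation, without the degrees of freedom of the F test, and so may be somewhat too narrow. CPM are TMM-scaled. Log2(TPM + 1) values, a scale that understates changes of low genes, were tested with limma 3.58.1 (limma-trend). Other alternatives were DESeq2 1.42.0, other scalings and filters, offsets for length and GC content (splines with 5 degrees of freedom per library, fitted on genes of at least 3 log2 CPM), the replicate number as a block, fits of only the groups compared, and leaving out single libraries. The implied length is counts over TPM, scaled per library on genes with 1 annotated transcript and tested with limma on genes with at least 50 counts and 1 TPM in every library. It was added after seeing the data. The scripts were tested on simulated data. Plots were drawn with matplotlib 3.10.9.

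The 35 genes, the lists and the tests were chosen with earlier results of these data known. Per-library values are given for genes of the set called in any comparison, and up to 3 called genes with the smallest p are named per other list and inhibitor. A gene named by this rule is not reported here. Overlapping genes such as Vrk2 were named after their values were seen. The labels do not say that libraries came from separate cultures, so the spread behind the p-values may be technical. Members of 1 complex are not replicates of a condition.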

Additional observations from a re-analysis of the deposited data

How the results depend on the processing

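Over 20 alternative settings, the direction of each called gene of the set held except that of Mus81, which on log2(TPM + 1) values was at -0.37 with tazemetostat and -0.41 with valemetostat, by construction of TPM as count per length. On that scale 8 genes were called lower and 1 higher with tazemetostat, and 14 lower and 1 higher with valemetostat. Of all tested genes 15.5% were lower and 9.36% higher with tazemetostat, and 16.8 and 9.47% with valemetostat. Over the other settings with all libraries, 12 to 17 genes were called lower and 3 higher with tazemetostat, and 14 to 17 lower and 2 to 3 higher with valemetostat. The smallest share of all tested genes called lower was 11.3% with tazemetostat (DESeq2) and 11.9% with valemetostat (no filter on counts). The largest came with library totals without TMM, at 2646 and 2549 of 12580 genes. The 17 genes of the set in each comparison came from that same setting, and so stand beside a raised share. Leaving out each library in turn gave 11 to 16 lower and 3 higher with tazemetostat, and 13 to 14 lower and 2 to 3 higher with valemetostat. The shares of all tested genes were then 13.9 to 17.5% lower and 16.5 to 19.8% higher with tazemetostat. With valemetostat they were 14.2 to 18.3% and 17.2 to 20.6%. Of the 18 calls with tazemetostat 6 were kept in all 20 settings, and of the 17 with valemetostat 9 were. The share of all called genes kept in all 20 settings was not counted. The cause of the lost calls was not tested. Valemetostat against tazemetostat called 0 genes of the set in every setting, where at most 0.485% of all tested genes were lower and 0.151% higher.

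Deviations from group means correlated at -0.0397 to 0.0763 between same-numbered libraries, and at -0.0765 to 0.0617 between differently numbered ones. These values showed no clear pairing by replicate number. The labels do not say whether same-numbered libraries were handled together. With the number as a replicate block, 13 genes fell and 3 rose with tazemetostat and 14 fell and 3 rose with valemetostat, and Xrcc3 and Slx4 lost their tazemetostat calls (edgeR adjusted p = 0.0537 and 0.0532). Of all tested genes 17.0% fell and 19.0% rose with tazemetostat, and 17.8 and 19.6% with valemetostat. With the block and the length and GC offset together, 13 fell and 3 rose, and 14 fell and 2 rose. Beside these stand 18.2 and 18.4% of all tested genes with tazemetostat, and 18.4 and 18.4% with valemetostat. Depth limited Fancf most, whose lowest count was 45 and whose log2 fold change had an SE of 0.29 in each comparison with DMSO. Genes of the set called with neither inhibitor had values down to -0.21, so changes of that size were not always detectable here.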
